A study of Sus scrofa with 8 samples.

Results

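VRTN, VSNL1, CBLN1 and TRIML2 are 4 protein-coding genes chosen by name out of 25578 in a pig (Sus scrofa) RNA-seq table, as genes far higher in stem cells than in the stages grown from them. The choice rested on the stem cell levels against the later ones, so that contrast is described here without a test, and tests are given only for steps among the later stages and for other genes. The study followed pluripotent stem cells (PSC, headed EPSC in the table) through definitive endoderm (DE) and anterior foregut endoderm (AFE) to lung progenitor organoids (LPO), with 2 libraries of messenger RNA per stage. The labels name neither the cell line nor the culture agents nor the days of each stage. They also do not say whether the libraries of a stage are separate cultures, so p-values cover only the variation between these libraries, which could be technical. Totals were 36004372 and 42251431 counts in PSC and 61748702 to 67566269 in the later stages, and about 4 counts stood for 1 read pair, which gives 9001093 to 16891567 read pairs per library.

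The stage markers followed the labels in part. The pluripotency regulator POU5F1 averaged 3260 FPKM (fragments scaled for transcript length and library size, the authors' unit) in PSC, SOX17 87.4 FPKM in DE, and the lung factor NKX2-1 7.78 FPKM in AFE and 18.8 FPKM in LPO. NANOG (35.3 FPKM) and PRDM14 (30.7 FPKM) were highest in PSC, and SOX9 (52.7 FPKM) and FOXP2 (4.195 FPKM) in LPO. Of the other definitive endoderm markers, GATA6 was highest in DE, at 35.0 FPKM, but CXCR4 averaged 13.4 FPKM in DE and 17.05 FPKM in AFE. Of the 5 listed foregut markers, FOXA2 averaged 34.5 FPKM in AFE, SOX2 5.32, TBX1 5.17, HHEX 1.23 and PAX9 0.185. Only TBX1 was highest in AFE, while FOXA2 (114 FPKM) and HHEX (33.8 FPKM) were highest in DE. SOX2, also listed as a pluripotent marker, averaged 4.97 FPKM in PSC. It was highest in LPO, at 38.2 FPKM, as was PAX9, at 1.465 FPKM. Surfactant SFTPC, a marker of alveolar cells, averaged 0.465 FPKM in LPO and was listed at 0 elsewhere.

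The 4 genes belong to different families. VRTN (vertnin) encodes a DNA-binding protein known in pigs for its influence on the number of thoracic vertebrae. VSNL1 encodes visinin-like 1, a calcium sensor of the neuronal calcium sensor family that is best known from brain. CBLN1 encodes cerebellin 1, a secreted protein that organises synapses in the cerebellum. TRIML2 encodes a tripartite-motif-like protein, a relative of the ubiquitin ligases of the TRIM family.

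In the deposited coordinates VRTN lies on chromosome 7 (97614707 to 97624273, plus strand), VSNL1 on chromosome 3 (120177895 to 120288143, minus strand), CBLN1 on chromosome 6 (35515754 to 35519517, plus strand) and TRIML2 on chromosome 17 (7311007 to 7326119, plus strand). The labels and headers name no genome build. Their spans run from 3764 bases in CBLN1 to 110249 bases in VSNL1, and none overlaps another gene of the table. Of the gene ontology terms in the table, VSNL1 and TRIML2 share 1 (cytosol), and no other pair shares any.

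In stem cells all 4 genes were readily measured, over a 10-fold range of levels per transcript length. VRTN stood at 72.39 and 82.35 FPKM in the PSC libraries, VSNL1 at 28.66 and 29.63, CBLN1 at 26.17 and 25.96, and TRIML2 at 8.17 and 7.22. The libraries of neighbouring genes in that order did not overlap, although VSNL1 and CBLN1 lay close together, at 29.1 ± 0.686 and 26.1 ± 0.148 FPKM (SD, n = 2). Among 18276 genes above 0 in PSC, VRTN ranked 823, VSNL1 1979, CBLN1 2156 and TRIML2 5023. Both PSC libraries lay above all 6 later libraries in 4 of 4 members, a property the choice itself asked for and that 19.0% of the 19346 genes tested share.

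VRTN did not match the description of a gene lost on leaving the stem cell state. It stood at 53.14 and 47.92 FPKM in DE, below both PSC libraries but of the same order. After scaling, as counts per 1e6 counts (CPM), VRTN went from 269 ± 29.4 in PSC to 180 ± 13.0 in DE (SD, n = 2), so that 66.9% of the stem cell level was left. That share ran from 59.8% with DESeq2 size factors to 72.5% without PSC replicate 2. VRTN is therefore called here a gene kept through definitive endoderm. In bulk RNA, fewer cells of a type and less RNA per cell cannot be told apart.

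VRTN was lost at the next step. In AFE it stood at 0.03 and 0.12 FPKM, which rests on 8 and 28 counts, or about 2 and 7 read pairs. The level in DE was 603-fold higher than in AFE (95% counting interval 319 to 1327, which covers counting error only). On the log2 scale the change from DE to AFE was -9.23 (SE 0.335, adjusted p = 7.1e-06, edgeR quasi-likelihood test with Benjamini-Hochberg adjustment over 19346 genes). It was −8.59 without AFE replicate 1 and −10.41 without AFE replicate 2, since the AFE libraries hold so few reads. In LPO the gene was listed at 0 in both libraries, at least 1197-fold lower than in DE (adjusted p = 7.8e-07), where the bound takes each library at 0 as holding 3 read pairs (12 counts), called the floor here.

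VSNL1 was lost at the first step. It was listed at 0 in DE replicate 1 and stood at 0.14 FPKM in replicate 2, where 16 counts or about 4 read pairs were found. In AFE it was again at 0 in replicate 1 and at 0.06 FPKM in replicate 2 (8 counts), and in LPO at 0 in both. The level in PSC was thus 404 times that in DE (95% counting interval 158 to 1491) and 849 times that in AFE (236 to 7074), and at least 376-fold higher than in LPO. With 1 library at 0, the share left is loosely set, at 0.248% in DE (0.495% without DE replicate 1) and 0.118% in AFE (0.236% without AFE replicate 1), and at 0 without the other library.

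CBLN1 was also lost at the first step but left a trace in every DE and AFE library. It stood at 0.08 and 0.13 FPKM in DE (12 and 20 counts) and at 0.09 and 0.07 FPKM in AFE (15 and 12 counts), so the DE and AFE libraries overlapped. The level in PSC was 245 times that in DE (95% counting interval 124 to 568) and 307 times that in AFE (143 to 736). In LPO the gene was listed at 0 in both libraries, at least 454-fold lower than in PSC.

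TRIML2 was listed at 0 in both DE libraries, at least 108-fold lower than in PSC. It was found again at 0.07 and 0.04 FPKM in AFE (14 and 8 counts, about 6 read pairs in all) and was listed at 0 in both LPO libraries, at least 150-fold lower than in PSC. Because its stem cell level was the lowest of the 4, its bounds are the loosest. A count under the floor still allows 0.927% of the PSC level in DE and 0.667% in LPO, against 0.0559% in LPO for VRTN.

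**Figure D1:**
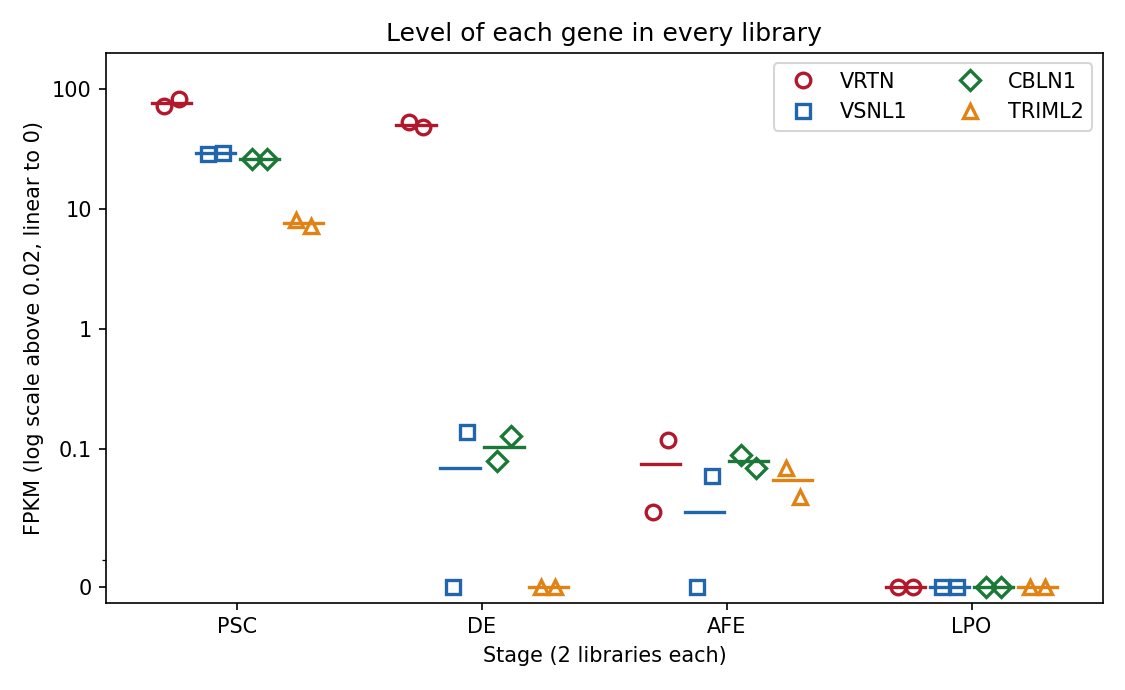
FPKM of VRTN, VSNL1, CBLN1 and TRIML2 (vertical axis, log scale with a linear stretch down to 0) in the 2 libraries of each stage (points), with stage means as bars. VRTN stays at 53.14 and 47.92 FPKM in DE where the other genes are at 0.14 FPKM or less, and the 4 genes are at 0 in both LPO libraries.

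The choice named no step among the later stages, but it took the later levels as low ones, and each member entered the tests through the stages where it is high. With all 8 libraries fitted, 2 of 4 members were called (adjusted p under 0.05) from DE to AFE, VRTN lower and TRIML2 higher. At that step 35.3% of all genes tested were called (17.4% lower and 17.9% higher). From AFE to LPO 3 of 4 were called, all lower, where 59.8% of all genes were called and 29.6% were called lower. From DE to LPO 2 of 4 were called, both lower, where 62.7% of all genes were called and 31.1% were called lower. With only the 4 libraries of each step fitted, VSNL1 and TRIML2 left the filter on low counts at every step and VRTN from AFE to LPO, and the members called numbered 1, 1 and 2. With limma on log2(FPKM + 1) they numbered 1, 0 and 1. The counts are therefore read as nothing more than a record of the fit, and only VRTN from DE onward and CBLN1 could be tested without the stem cell libraries.

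VRTN from DE to AFE and from DE to LPO, given above, was called in each of these fits. CBLN1 was not called from DE to AFE (log2 change -0.32, SE 0.324, adjusted p = 0.533, edgeR), with a counting interval for DE over AFE of 0.382 to 3.91. It was called lower in LPO than in AFE (7 read pairs against 0, at least 1.48-fold, adjusted p = 3.1e-04, edgeR) and than in DE (8 read pairs against 0, at least 1.86-fold, adjusted p = 1.9e-04, edgeR). With only the 4 libraries of each step fitted, the edgeR adjusted p was larger, at 0.00774 against AFE and 0.00753 against DE. It was also larger with counts divided by 4, which enters each read pair about once, at 0.00259 against AFE and 0.00150 against DE (edgeR). Both CBLN1 calls ended with limma on log2(FPKM + 1), at log2 changes of −0.11 and −0.14.

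The other values are a few read pairs and are given as counts. VRTN had 9 read pairs in AFE and 0 in LPO, at least 1.99-fold lower. TRIML2 had 0 in DE, 6 in AFE and 0 in LPO, at least 1.20-fold lower in LPO than in AFE, and of its AFE libraries replicate 1 (14 counts) lay above the floor and replicate 2 (8 counts) below it. No fold is given for TRIML2 between DE and AFE, since its AFE mean of 0.181 CPM lay below the floor of both DE libraries (0.208 and 0.210 CPM). VSNL1 had 4 read pairs in DE, 2 in AFE and 0 in LPO, with a counting interval for DE over AFE of 0.302 to 23.3. With 2 libraries a stage, an exact permutation test could not go below p = 0.333, so the calls above lean on the spread pooled over all genes.

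Few genes were lost as sharply. Of 6267 tested genes with a PSC mean of 5 FPKM or more, 13 kept 1% or less of the PSC level in DE, 48 in AFE and 51 in LPO, and the median gene kept 84.0%, 82.6% and 55.1%. In DE 7 genes kept a smaller share than VSNL1 (0.248%) and 8 a smaller share than CBLN1 (0.409%), while 2180 kept a smaller share than VRTN. In AFE VRTN kept 0.111%, VSNL1 0.118%, CBLN1 0.326% and TRIML2 0.803%, and 20, 22, 29 and 44 genes kept less than each. These places are loose: with 1 library left out, the AFE share ran from 0.0485% to 0.174% in VRTN, from 0 to 0.236% in VSNL1, from 0.293% to 0.359% in CBLN1 and from 0.592% to 1.01% in TRIML2, so the order of VRTN and VSNL1 is not set. These are descriptions, since the members were chosen for their loss and the thresholds were set with the values known.

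At 1% or less in all of DE, AFE and LPO stood 8 genes, picked here after their values were seen. They were VSNL1, CBLN1, TRIML2, the germline and pluripotency regulator PRDM14, the NODAL inhibitor LEFTY2 and 3 genes without a symbol. Only 4 genes kept 50% or more in DE and 1% or less in both AFE and LPO. Beside VRTN these were the growth factor FGF8 (64.1% in DE), the zinc-finger factor ZSCAN10 (167%) and EOMES, a T-box factor of mesendoderm (194%).

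**Figure D2:**
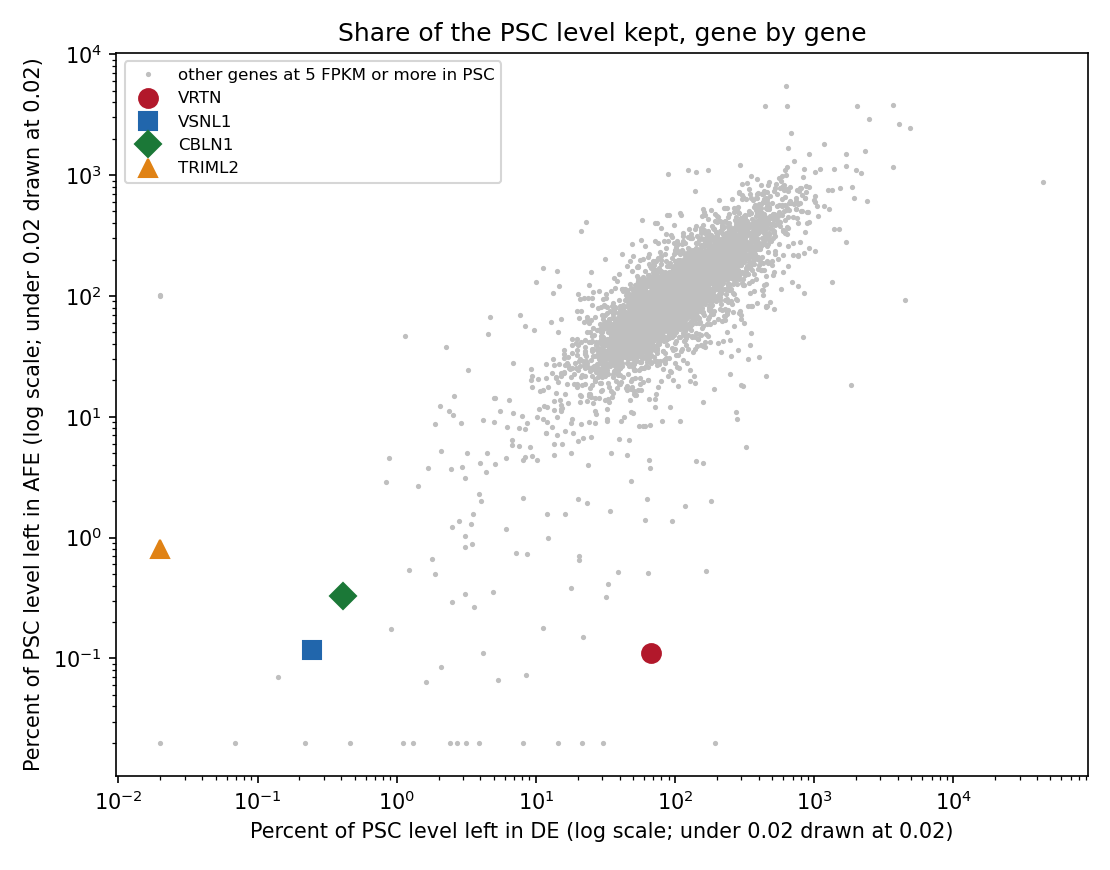
Percent of the PSC level left in DE (horizontal axis) and in AFE (vertical axis), both log scales, for 6267 genes with a PSC mean of 5 FPKM or more (grey points) and the 4 members (coloured). VSNL1, CBLN1 and TRIML2 sit at the lower left, under 1% on both axes, and VRTN sits at the bottom but at 66.9% on the horizontal axis.

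The pattern of each member across the 8 libraries was set against 9370 other genes with a symbol and a PSC mean of 1 FPKM or more, by the root mean square difference of log2(FPKM + 0.1) after subtraction of the PSC mean. VSNL1 and CBLN1 were each other's nearest gene (0.539), and PRDM14 came next for both (0.545 and 0.843), at 30.68 FPKM in both PSC libraries and 0 in all later ones. The third was the osteoclast cytokine TNFSF11 for VSNL1 (1.48) and TRIML2 for CBLN1 (1.22). Nearest to TRIML2 were the GABA receptor subunit GABRA5 (0.622), the class II histocompatibility gene HLA-DOB (0.732) and the DNA methyltransferase DNMT3B (0.771). The pseudocount holds the fall of a gene as low as TRIML2 to a few log2 units, so that genes keeping 0.775% to 3.43% of their FPKM in DE lie close to it.

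VRTN had no near match by this measure. Its 3 nearest genes lay at 1.63 to 1.66, as far off as TRIML2 lay from VSNL1 (1.64), and the other members lay at 3.40 to 3.66. The nearest were FST (follistatin, an activin inhibitor), the carboxypeptidase-like CPXM2 and OTX2, a factor of epiblast and anterior endoderm. FST stood at 150.19 and 166.72 FPKM in PSC, 47.61 and 73.28 in DE and 0.86 and 0.68 in AFE. OTX2 stood at 66.29 and 68.96 FPKM in PSC, 50.3 and 33.43 in DE and 1.48 and 1.19 in AFE, and was listed at 0 in both LPO libraries. FST and OTX2 thus shared with VRTN a large level in PSC and a partial one in DE. CPXM2 averaged only 16.8 FPKM in PSC and was down to 21.3% of that in DE. The pseudocount also holds genes with a lower PSC level, such as FGF8 (12.8 FPKM), to a smaller fall than VRTN. By share of the PSC level FGF8 lay near VRTN, with 64.1% left in DE, 0.506% in AFE and 0 in LPO. For VRTN these shares were 66.9%, 0.111% and 0.

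Pluripotency genes, listed by role, fell in most cases at the first step. Of 23 tested, 14 fell and 4 rose (median log2 change -2.36, against 0.08 over all genes), where 23.0% of all genes were called lower in DE and 30.8% higher. This list was drawn up with earlier results of these data known. The 4 that rose from PSC to DE were LIN28A (5.05 to 38.1 FPKM), SALL4 (0.71 to 10.5 FPKM), TERT (3.4 to 8.365 FPKM) and TFCP2L1 (0.04 to 0.345 FPKM). Of POU5F1 8.05% of the PSC level was left in DE (log2 change -3.64, SE 0.152, adjusted p = 1.1e-06), of DNMT3B 3.52% (adjusted p = 2.9e-08) and of LEFTY2 0.0686% (adjusted p = 4.5e-07), all by edgeR. OTX2 kept 63.4% (adjusted p = 0.0261), a call lost when either PSC library (log2 change −0.70 and −0.61) or DE replicate 2 (−0.41) was left out. VRTN, at 66.9%, lay beside OTX2, whereas VSNL1, CBLN1 and TRIML2 kept less than POU5F1, NANOG, SOX2 or DNMT3B.

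**Figure D3:**
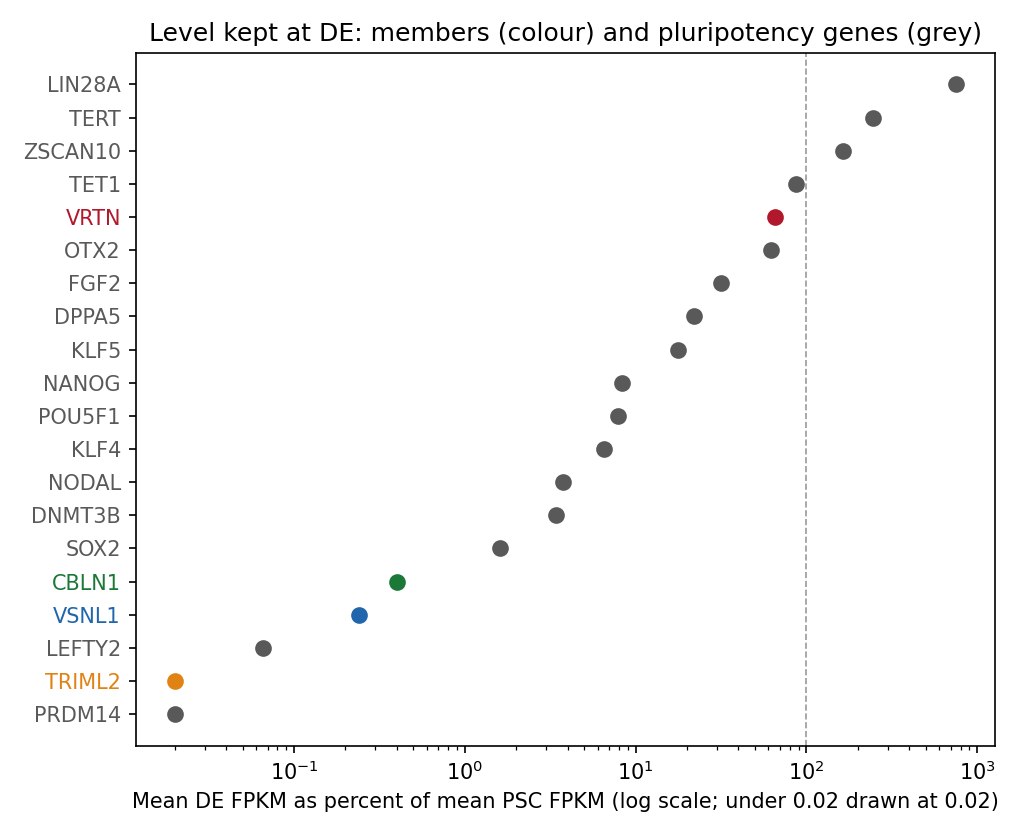
Mean FPKM in DE as a percent of mean FPKM in PSC (log scale) for the 4 members (coloured) and the listed pluripotency genes with a PSC mean of 1 FPKM or more (grey), in order, with a dashed line at no change. VRTN lies just above OTX2 near the top, and CBLN1, VSNL1 and TRIML2 lie near the bottom with LEFTY2 and PRDM14.

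Relatives of the members did not share their stem cell level. Of the cerebellin family and its synaptic partners, 10 of 12 listed genes are in the table and their FPKM summed to 2.95 and 2.31 in PSC, against 26.17 and 25.96 for CBLN1 alone. Of 8 tested from DE against PSC, 1 fell and 3 rose (median log2 change 0.01), where 23.0% of all genes were called lower and 30.8% higher. CBLN2 fell from 0.955 ± 0.262 FPKM to 0 (SD, n = 2, adjusted p = 5.0e-05, edgeR), and stood at 3.66 ± 0 FPKM in AFE. CBLN4 rose from 0.120 to 2.1 ± 1.13 FPKM (adjusted p = 8.3e-04), with a log2 change of 4.08 that was 3.40 without DE replicate 1. The related secreted protein C1QL4 rose from 0.0550 ± 0.0778 to 0.790 ± 0.0424 FPKM (adjusted p = 0.00523, log2 change 3.82, but 9.54 without PSC replicate 1 and 2.92 without PSC replicate 2), and C1QL3 was not called.

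Among the other neuronal calcium sensors, 2 of 12 tested fell from PSC to DE and 4 rose (median log2 change 0.53). Of all genes, 23.0% were called lower and 30.8% higher. The best measured were HPCAL1, which rose from 4.32 ± 0.431 to 8.09 ± 0.198 FPKM (log2 change 0.94, adjusted p = 5.9e-04, edgeR), and NCS1, which rose from 7.14 ± 0.502 to 13.3 ± 0.948 FPKM (log2 change 0.93, adjusted p = 7.0e-05), with n = 2 each. The potassium-channel partner KCNIP3 rose as well (log2 change 1.75, adjusted p = 6.8e-04), and KCNIP2 was not called (adjusted p = 0.0736). The 2 that fell were KCNIP1, from 1.245 ± 0.0919 to 0.035 ± 0.00707 FPKM (adjusted p = 2.9e-04, edgeR), and HPCA, from 0.575 ± 0.247 to 0.01 ± 0.0141 FPKM (adjusted p = 0.00714, edgeR). KCNIP1 stayed low as VSNL1 did, at 0.005 FPKM in AFE and 0.025 FPKM in LPO, whereas HPCA averaged 0.385 FPKM in LPO. HPCAL1 was highest in LPO, at 20.8 ± 0.0424 FPKM, where VSNL1 was at 0.

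VRTN was set beside genes of vertebral number and axial patterning, of which 7 of 17 tested rose and 2 fell from PSC to DE (median log2 change 0.48). Of all genes, 30.8% were called higher and 23.0% lower. The number that fell depended on the fit and reached 6 with limma on log2(FPKM + 1). NR6A1, the nuclear receptor gene of another pig vertebral-number locus, fell slightly from 32.3 ± 0.219 to 26.0 ± 0.177 FPKM (SD, n = 2, log2 change -0.28, adjusted p = 0.0123, edgeR) and stood at 13.6 ± 0.799 in AFE and 5.76 ± 0.0566 in LPO. FGF8 stood at 12.8 ± 0.198 FPKM in PSC, 7.98 ± 0.467 in DE and 0.0550 ± 0.0778 in AFE, without a call at the first step (adjusted p = 0.297). TBX6, a factor of presomitic mesoderm, rose (log2 change 3.00, adjusted p = 2.0e-05), and the Notch modifier LFNG was not called. The other gene of this list that fell was CDX4, from 11.1 ± 0.566 to 0.335 ± 0.233 FPKM (adjusted p = 6.2e-04, edgeR). RIPPLY2 went from 5.01 ± 0.368 to 1.465 ± 0.0212 FPKM without a call (adjusted p = 0.0806, edgeR). Both were listed at 0 in AFE and LPO.

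The genes beside the members did not all fall with them. Of the 2 nearest genes on each side, 16 in all, 12 could be tested from DE against PSC, and 4 fell and 4 rose (median log2 change 0.21, with 2 to 5 rising over the alternatives). Of all genes tested, 23.0% were called lower and 30.8% higher, so these counts lie near those of any genes. Near VRTN, SYNDIG1L, a synaptic membrane protein gene 34028 bases away, rose from 0.485 ± 0.163 to 14.6 ± 0.820 FPKM (SD, n = 2, log2 change 4.93, adjusted p = 1.6e-05, edgeR) and stood at 0.010 ± 0.0141 FPKM in AFE. NPC2, a lysosomal cholesterol carrier, rose from 80.1 ± 0.573 to 1060.3 ± 28.3 FPKM in DE (adjusted p = 2.9e-08). The peroxisomal transporter ABCD4 rose slightly (log2 change 0.50, adjusted p = 0.0125), a call that ended with DESeq2 size factors (log2 change 0.33), without PSC replicate 1 (0.36) and without DE replicate 1 (0.40).

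Beside the other members, each neighbour above 1 FPKM in PSC stayed above it in every stage mean. Next to VSNL1, the chromosome-maintenance gene SMC6 lies 6924 bases away and stood at 10.4 ± 0.304 FPKM in PSC and 7.18 ± 0.219 in DE (log2 change -0.50, adjusted p = 0.00257, edgeR, n = 2). CYRIA, 679917 bases away on the other side, fell further, from 6.70 ± 0.509 to 2.07 ± 0.170 FPKM (log2 change -1.66, adjusted p = 3.1e-05, edgeR). GEN1 rose slightly (log2 change 0.65, adjusted p = 0.0316, edgeR), a call that ended with DESeq2 size factors (0.49) and in other alternatives. CBLN1 lies alone, with the nearest gene, the zinc-finger factor ZNF423, 216066 bases away at 2.04 ± 0.643 FPKM in PSC and 2.2 ± 0.00707 in DE (adjusted p = 0.650). TRIML1, the nearest relative and neighbour of TRIML2 at 18326 bases, stood at 0.04 FPKM in PSC replicate 1 and was listed at 0 in the other 7 libraries. On its other side, 76039 bases away, an unnamed gene stood at 90.2 ± 1.91 FPKM in PSC, 45.5 ± 6.51 in DE and 9.06 ± 0.969 in LPO (log2 change -0.95 from PSC to DE, adjusted p = 4.5e-04). The cadherin FAT1, listed with that locus, fell (log2 change -0.82, adjusted p = 4.7e-05) and averaged 20.1 ± 0.0707 FPKM in LPO.

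**Figure D4:**
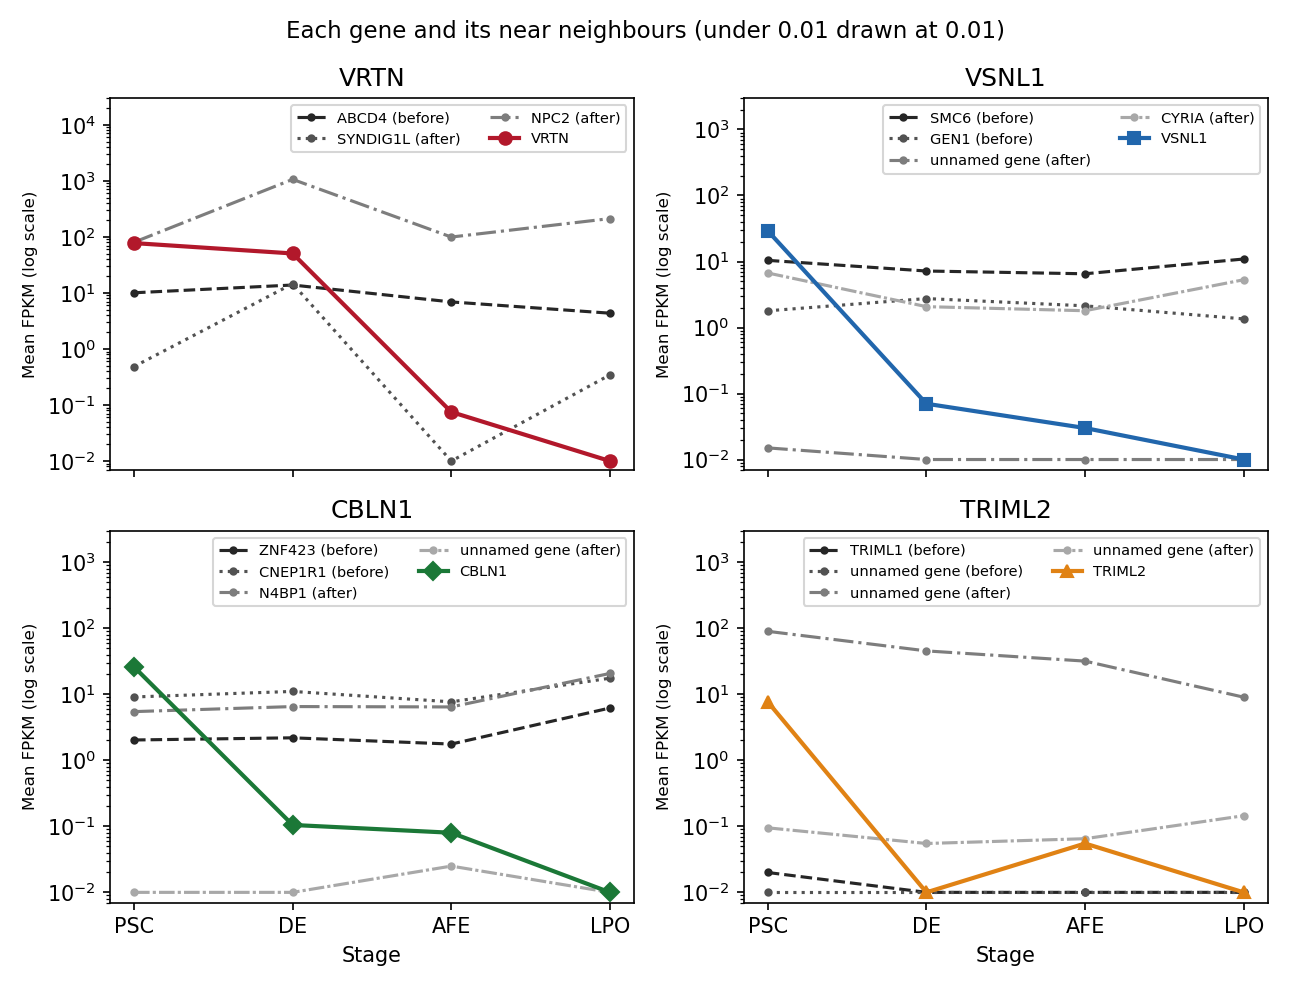
Mean FPKM (log scale) by stage for each member (coloured) and the 2 nearest genes on each side (grey shades), of which 1 beside VRTN is not shown. The neighbours of VSNL1 and CBLN1 that exceed 1 FPKM in PSC stay above 1 FPKM in every stage, and SYNDIG1L next to VRTN peaks in DE at 14.6 FPKM.

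VSNL1 and CBLN1 are best known from neurons, so neuronal markers were measured beside them. Of 14 listed, 13 are in the table, and their FPKM summed to 238 and 214 in PSC, 81.4 and 68.5 in DE, 15.5 and 16.4 in AFE and 45.8 and 42.6 in LPO. Of 13 tested, 10 fell from PSC to DE and none rose, where 23.0% of all genes were called lower and 30.8% higher. The sum in PSC came mostly from the tubulin TUBB3 (131 ± 13.1 FPKM), the growth-cone protein GAP43 (33.4 ± 1.86), the RNA-binding ELAVL3 (24.6 ± 5.97) and the tubulin-binding STMN2 (23.1 ± 0.0495), with n = 2 each. Of the synaptic and filament genes, SNAP25 averaged 5.47 FPKM in PSC, SYP 4.34, INA 1.58, SYT1 0.835 and NEFL 0.575, and MAP2 averaged 1.12. The lowest were ELAVL4 (0.210 FPKM), RBFOX3 (0.180) and DCX (0.00500). Several fell far in DE along with VSNL1 and CBLN1, with INA listed at 0 there and 0.908% of the PSC level left of SYT1, 2.40% of ELAVL3 and 6.40% of SYP. In LPO, where VSNL1 and CBLN1 were at 0, 4 of 13 markers had a higher mean than in PSC, among them SNAP25 (16.2 FPKM) and MAP2 (6.68), and 9 a lower one, among them TUBB3 (8.34), GAP43 (4.23), STMN2 (2.95) and ELAVL3 (1.03). The part of neuron-like cells in the levels of VSNL1 and CBLN1 was not tested.

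Germ cell markers, 5 of 7 in the table, summed to 26.6 and 29.1 FPKM in PSC, of which the receptor KIT made up 25.7, with NANOS3 listed at 0 and DDX4 at 0.00500. Their sums were 16.3 and 13.8 in DE, 6.92 and 5.93 in AFE and 46.2 and 42.8 in LPO. Trophoblast markers, 7 of 7 in the table, summed to 13.3 and 12.5 FPKM in PSC, with CDX2 at 0, and to 61.5 to 94.2 in the later stages. In LPO, where the members were at 0, both lists summed to more than in PSC, mostly through 1 gene each, KIT (39.5 FPKM) and the keratin KRT7 (79.3), and their part in the members' levels was not tested.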

How the data were processed

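Messenger RNA of 4 stages, 2 libraries each, was sequenced in pairs from stranded libraries, per the labels' protocols. Per the submitters' processing notes the tools included StringTie 2.1.6, HISAT2 2.2.1 and cutadapt 1.9, besides edgeR and DESeq2, with no role stated for any of them. The authors deposited 1 table with expected counts (estimated counts per gene, whole numbers, unscaled) and FPKM as computed by the authors. Low counts gathered at multiples of 4 (46.4% to 50.7% of those up to 12), so 4 counts were taken as 1 read pair.

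Counts of 19346 genes passing filterByExpr, all 4 members among them through the stages where they are high, were scaled by TMM (factors 0.901 to 1.27) and fitted with edgeR 4.0.16 in R 4.3.3 (glmQLFit, 4 stages, 8 libraries, glmQLFTest, Benjamini-Hochberg adjusted p under 0.05). In counts simulated for DE against PSC (19346 genes), 79% of 100 genes changed 2-fold and 99% of 100 changed 4-fold were recovered, with 7 false calls. The changed genes were drawn from those with an expected count above 100 in every library before the change. The spread was that of the fit itself. The recovery figures therefore do not cover calls on trace levels. Counting intervals are exact binomial intervals on read pairs, without molecular identifiers. Figures used Python 3.11.15 and matplotlib 3.10.9.

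Members and gene lists were chosen with earlier results of these data known. Named genes are the members, the 4 most abundant genes of each of 5 companion lists, the 2 nearest genes on each side, the 3 nearest patterns per member, and marker genes. Some genes outside these sets, either sharply lost or called in a list, were named with their values known. Genes without a row, such as ZFP42, were not analysed here, and some genes that the rule names are left out. Same-numbered libraries did not deviate together. Alternatives were no filter, a filter of 1 FPKM in 2 libraries, DESeq2 1.42.0 size factors and Wald test, limma 3.58.1 on log2 FPKM with pseudocounts of 1 and 0.1, only the libraries compared, the replicate number as a block, counts divided by 4, and each library left out.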

Additional observations from a re-analysis of the deposited data

How the results depend on the processing

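The loss of VRTN from DE to AFE was called under every alternative run, with log2 changes from −10.41 to −5.58. The choice of VRTN took its later levels as low ones, so these calls are not separate support for the loss. With limma on log2(FPKM + 1), which shrinks differences near 0, the calls on trace levels ended: TRIML2 from DE to AFE (log2 change 0.077), from AFE to LPO VRTN (−0.10), CBLN1 (−0.11) and TRIML2 (−0.077), and from DE to LPO CBLN1 (−0.14). The members called then numbered 1, 0 and 1 for the steps DE to AFE, AFE to LPO and DE to LPO. With only the 4 libraries compared, in which genes near 0 leave the filter, 1 member was called from DE to AFE and 1 from AFE to LPO. VSNL1 from DE to LPO ranged from −7.06 to 0 with a library left out, and was called without DE replicate 1. The share of VRTN left in DE was 59.8% with DESeq2 size factors and 62.1% to 72.5% with a library left out. Cerebellin-family genes that fell numbered 1 to 2 with a library left out. Axial patterning genes that fell numbered 2, but 4 with the DESeq2 Wald test, 4 with limma on log2(FPKM + 0.1), 4 with only the libraries compared, 5 with counts divided by 4 and 6 with limma on log2(FPKM + 1). With the replicate number as a block, the log2 change of VRTN from DE to AFE was −9.25 and no member's call changed. Deviations of same-numbered libraries correlated at −0.0136 to 0.00782 between stages. Such values cannot tell whether same-numbered libraries come from the same culture run, since noise of single libraries can hide a common origin. Depth limits every statement on later stages of VSNL1, CBLN1 and TRIML2, which hold 8 read pairs or fewer per stage there.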
